A study of Mus musculus with 5 samples.

Results

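The regions described here were distal RXRα peaks that were called in WT G but not in WT A, the other library of the same genotype. They were chosen by 2 conditions on the deposited peak lists: no overlap of even 1 bp with a WT A peak, and a midpoint over 5 kb from every transcription start site (TSS) of the mm10 annotation. This gave 2699 peaks out of 9766 in WT G and out of 14808 in all 4 lists. They were set beside the 1872 distal WT G peaks that overlapped a WT A peak, called distal shared peaks below.

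Alveolar macrophages (AMs) were obtained by bronchoalveolar lavage and sorted by FACS. WT A and WT G came from CD11cCre- Rxrabfl/fl mice, which carry floxed Rxra and Rxrb but no Cre, and KO A and KO G from CD11cCre+ Rxrabfl/fl mice. The methods give the mice as C57BL/6J and 9 weeks old. Every mouse carried the floxed alleles, and the Cre is driven by the Cd11c promoter, which is active in AMs and also in other CD11c+ cells such as dendritic cells. An input sample of CD11cCre- Rxrabfl/fl AMs was the control for peak calling. Binding was measured by HT-ChIPmentation with an anti-RXRα antibody, in which the sequencing library is made by tagmentation on the beads. The labels do not say whether A and G are separate animals, and each list comes from 1 library, so peaks within it are not replicates.

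RXRα is a nuclear receptor that binds DNA as a homodimer or as the partner of other nuclear receptors. Its sites are repeats of a hexamer, AGGTCA, and the spacing between the hexamers selects the partner. A direct repeat with a spacer of 1 base (DR1) is bound by RXR homodimers and by RXR with PPARs, DR3 by RXR with the vitamin D receptor, DR4 by RXR with LXRs or thyroid receptors, and DR2 and DR5 by RXR with retinoic acid receptors. In macrophages these receptors bind largely at enhancers far from promoters, beside PU.1, C/EBP, RUNX and AP-1, which keep macrophage enhancers open. In AMs, PPARγ with RXR controls lipid handling and the identity of the cell.

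The sequences below show the closest letter matches to a DR1 near the summits of these peaks. Each is the WT G summit with 50 bp on either side, read from GRCm38 (mm10) 5′ to 3′ on the strand that reads the repeat as a DR1. Capitals mark the 13 bases closest to AGGTCANAGGTCA. The peaks are named by the protein-coding gene with the nearest TSS, and were taken for the fewest mismatches in the 12 hexamer letters and then for the highest −log10 q. Of the distal WT G only peaks:
Fam71a, chr1:191171995-191172095, plus strand: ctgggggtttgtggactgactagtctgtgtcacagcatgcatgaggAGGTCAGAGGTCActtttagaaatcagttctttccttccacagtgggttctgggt
Zfp652, chr11:95778945-95779045, minus strand: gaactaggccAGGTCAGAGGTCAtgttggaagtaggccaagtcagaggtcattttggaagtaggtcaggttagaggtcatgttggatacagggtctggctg
Kat5, chr19:5619366-5619466, plus strand: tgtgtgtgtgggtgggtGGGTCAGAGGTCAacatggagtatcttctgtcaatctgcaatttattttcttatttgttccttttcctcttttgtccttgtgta
Serpini2, chr3:75280565-75280665, minus strand: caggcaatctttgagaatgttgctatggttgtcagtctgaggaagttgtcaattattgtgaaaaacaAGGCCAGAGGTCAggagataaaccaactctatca
Pde8a, chr7:81176372-81176472, plus strand: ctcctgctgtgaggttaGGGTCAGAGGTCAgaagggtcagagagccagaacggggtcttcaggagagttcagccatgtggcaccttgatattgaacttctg
Lhfpl2, chr13:94109139-94109239, plus strand: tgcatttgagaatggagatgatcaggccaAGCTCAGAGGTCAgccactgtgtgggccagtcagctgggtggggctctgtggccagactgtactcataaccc
Clmn, chr12:104815529-104815629, minus strand: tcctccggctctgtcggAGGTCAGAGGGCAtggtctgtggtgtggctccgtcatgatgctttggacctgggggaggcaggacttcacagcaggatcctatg
Fam89a, chr8:124746171-124746271, minus strand: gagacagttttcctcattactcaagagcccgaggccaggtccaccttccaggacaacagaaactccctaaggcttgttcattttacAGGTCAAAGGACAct
The windows near Fam71a and Zfp652 held both hexamers without a mismatch, and the other 6 windows had 1 mismatch. The Zfp652 window carried further copies of the hexamer outside the capitals, as part of a longer stretch of letters that repeats. Of these 8 genes, 7 had no region in both WT lists, and Lhfpl2 was the exception with 2. The same choice among distal shared peaks gave windows with 1 mismatch near Itpkb, Zfp395 and Shld1, each a gene with other regions in both lists:
Itpkb, chr1:180404389-180404489, minus strand: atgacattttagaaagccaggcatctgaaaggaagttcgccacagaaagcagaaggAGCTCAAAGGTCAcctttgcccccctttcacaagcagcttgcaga
Zfp395, chr14:65380603-65380703, minus strand: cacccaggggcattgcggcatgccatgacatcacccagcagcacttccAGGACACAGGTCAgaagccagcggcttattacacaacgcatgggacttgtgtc
Shld1, chr2:132710634-132710734, plus strand: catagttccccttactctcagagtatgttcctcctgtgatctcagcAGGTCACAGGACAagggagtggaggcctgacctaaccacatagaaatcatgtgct

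A DR1 without a mismatch lay at 2 distal WT G only summits and at no distal shared summit. DR1 with 1 mismatch lay at 11 of 2699 distal WT G only summits and at 13 of 1872 distal shared summits. DR1 with 2 mismatches lay at 63 and at 89 summits. The Fam71a peak had 7 fragments at its summit and a −log10 q of 3.61, and the Zfp652 peak had 7 fragments and a −log10 q of 2.95. The shared Itpkb peak had 17 fragments, with a −log10 q of 15.9 in WT G and 12.4 in WT A.

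The distal WT G only peaks were lower and narrower than the distal shared peaks. Their median −log10 q in WT G was 4.12 (range 1.35 to 18.8), against 8.04 (1.73 to 50.4) for distal shared peaks. The median fold enrichment over the input background was 5.41 (3.51 to 12.9), against 7.60 (3.87 to 23.2). The median width was 270 bp against 530 bp. These values belong to the same list that chose the peaks, so they are a description and were not tested. Of all WT G peaks, 63.9% had no WT A peak, and of distal WT G peaks 59.0%. The WT A list was shorter, with 4751 peaks against 9766. Among as many of the strongest WT G peaks as WT A has, 874 were distal with no WT A peak. Distal WT G peaks were also divided into 4 strength classes at the quartiles of −log10 q, from class 1, the lowest, to class 4. Tied values made the classes unequal. The WT G only peaks made up 85.0% of class 1, 74.6% of class 2, 56.7% of class 3 and 16.4% of class 4.

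Few fragments stood behind most of these peaks. The number of fragments at each summit was worked back from the enrichment and the p-value of the peak. Its median was 8 (range 5 to 19) for distal WT G only peaks and 11 (5 to 74) for distal shared peaks. At most 10 fragments were found in 91.3% of the former and in 45.9% of the latter, and at most 7 in 42.6% and 10.7%. The 2 sets overlapped widely between 6 and 13 fragments, and above that nearly all peaks were shared. By the same derivation WT A was 4.77 times as deep as WT G if the shortest peak of each list is taken as its fragment length, and 2.58 times if both had 1 length. Neither was checked against read totals. The local background, worked back in the same way, was over 2 times the level of the whole genome at 1.96% (95% exact interval 1.47 to 2.56) of distal WT G only peaks and at 2.19% (1.58 to 2.96) of distal shared peaks.

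**Figure D1:**
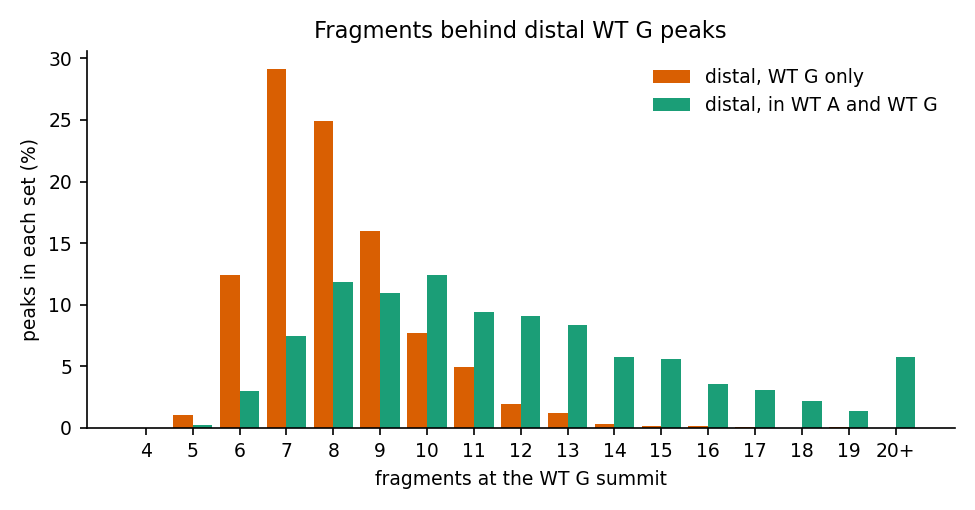
The x axis gives the number of fragments at the WT G summit and the y axis the share of peaks, in percent, of the 2699 distal WT G only peaks (orange) and of the 1872 distal shared peaks (green). The orange bars peak at 7 and 8 fragments, and the last green bar pools peaks with 20 or more.

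The lowest fold enrichment called at the background level of the whole genome was 3.84 in WT G and 4.36 in WT A. Of the members, which were called in WT G and so had to be enriched there, 94.4% (93.5 to 95.2) had at least 4.36 in WT G. These ratios carry a pseudocount of 1 over unlike derived backgrounds, 0.551 in WT G and 1.25 in WT A. The same value is therefore not the same enrichment in both, and 94.4% is not the share that could be called in WT A. The lists give no value at a place where no peak was called, so the enrichment of these regions in WT A was not known.

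At the limits of the rule, few bases decided on which side a peak fell. Just over 5 kb from a TSS, the members near Syt2, Ehhadh and Cd84 lay 5003, 5022 and 5030 bp away, with −log10 q values of 2.63, 8.04 and 6.18. Just inside, the WT G only peaks near Por, Cttnbp2nl and Fyb lay 5000, 4996 and 4995 bp away, with values of 2.63, 3.61 and 4.64. The smallest gaps to a WT A peak were 1, 2 and 5 bp, near Has1, Akap13 and Gab2, with −log10 q values of 8.04, 4.64 and 3.61. The smallest overlaps that made a peak shared were 1 bp near Lrrfip1 and 2 bp near Acot10 and near Scd1, with values of 5.73, 5.87 and 6.88.

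Many members lay close to a WT A peak without touching it. The gap was at most 500 bp for 454 members (16.8%, 15.4 to 18.3) and at most 1 kb for 696 (25.8%, 24.1 to 27.5). Its median was 7059 bp, and 81.4% lay within 100 kb. The nearest region with a peak in both WT lists was within 10 kb for 50.8% of members. The members also lay near each other: 24.9% had another member's summit within 1 kb and 52.2% within 10 kb.

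**Figure D2:**
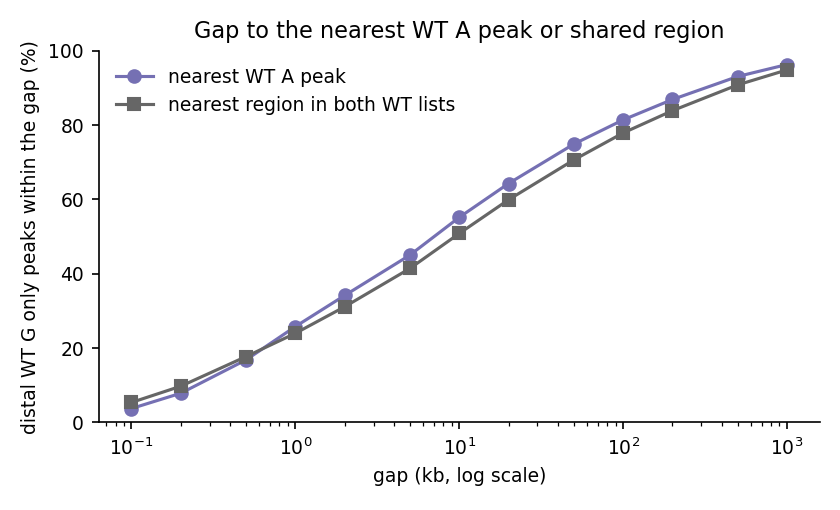
The y axis gives the share of the 2699 distal WT G only peaks, in percent, whose gap to the nearest WT A peak (circles) or to the nearest region in both WT lists (squares) is at most the value on the x axis, in kb on a log scale. The circles pass 25.8% at 1 kb and 81.4% at 100 kb.

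Most of these peaks lay at genes that RXRα also bound in both WT lists. A gene was counted where it had the nearest protein-coding TSS to a merged region with a peak of both lists. There were 1927 such genes, or 8.90% of 21646. Of the 2699 members, 1934 (71.7%, 69.9 to 73.4) had one of them as their nearest gene. These genes were nearest to 13.5% of the genome sequence that lies over 5 kb from every TSS. Among distal shared peaks, 1300 of 1872 (69.4%, 67.3 to 71.5) lay at a gene with a further region in both lists, not counting their own. The difference of 2.21 percentage points had a 95% Newcombe interval of −0.467 to 4.91, which holds 0. It excluded 0 with the nearest TSS of any gene (3.57, 0.683 to 6.46) and when the region in both lists had to be distal (4.04, 1.17 to 6.92). Compared within strength classes, members were at such genes more often, by 5.97 points (2.14 to 9.81). The difference was 8.13 points in class 1 and 6.99 in class 2, while in class 3 (−3.04 to 7.77) and class 4 (−6.75 to 7.21) the interval held 0.

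Closeness to a WT A peak moved with this share. Of the 696 members within 1 kb of a WT A peak, 96.7% were at a gene with a region in both lists, and of the other 2003 members 63.0%. There were 3423 regions in both lists beside 4751 WT A peaks, so a WT A peak is often part of such a region. This contrast is therefore in part built into the split. Counting a WT A peak within 1 kb as shared turned the difference from distal shared peaks to −13.9 points (−16.5 to −11.2), since the near peaks then enter the shared set with a bound neighbour beside them.

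The members had 1368 nearest genes, 6.32% of protein-coding genes. Of these, 794 also had a region in both lists and held 1934 members, and 574 had none and held 765. From the side of the bound genes, 794 of 1927 (41.2%) held a member. The share of genes with a shared region rose with the number of members. A region in both lists was found at 46.1% (42.7 to 49.6) of the 815 genes with 1 member, at 63.8% (57.7 to 69.6) of the 268 with 2, at 78.9% (70.8 to 85.6) of the 128 with 3 and at 93.0% (87.8 to 96.5) of the 157 with 4 or more. The stretch of distal sequence nearest to the gene moved with the number of members, with a median of 69.8 kb for genes with 1 and 167 kb for genes with 4 or more, and its part in the trend was not tested. Within the genes with 1 member it was 74.6 kb for those with a region in both and 65.6 kb for those without. With 4 or more members the order was the other way, 165.3 kb and 184.4 kb.

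**Figure D3:**
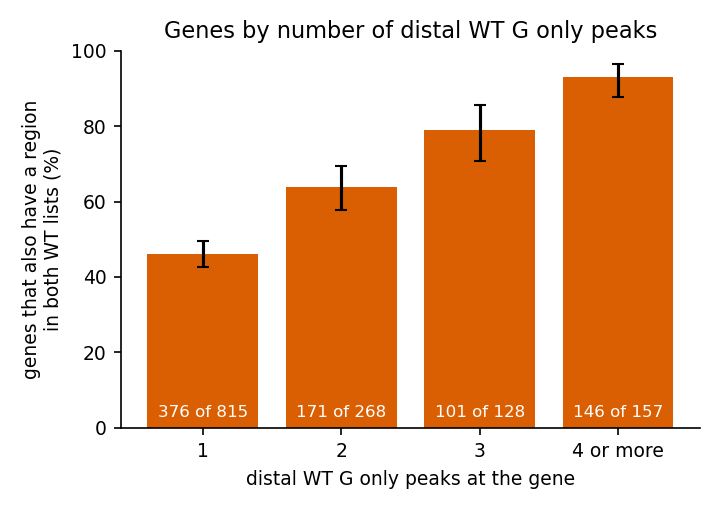
The x axis groups the 1368 genes by their number of distal WT G only peaks, and the y axis gives the share, in percent, that also has a region in both WT lists. Bars are shares, error bars are 95% exact intervals, and the share rises from 46.1% to 93.0%.

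Cd44, the hyaluronan receptor, had 19 members and 7 regions in both lists. Of its members, 9 lay within the gene, 9.45 to 61.6 kb after the TSS and 49.9 to 102 kb from the nearest WT A peak. The other 10 lay 38.9 to 79.6 kb upstream, 7 of them within 1 kb of a WT A peak. Over all 19 members the −log10 q ran from 2.11 to 6.94. Nceh1, a cholesterol ester hydrolase of macrophages, had 16 members and 7 regions in both, all 16 in introns between 11.2 and 53.8 kb after its TSS, with −log10 q values of 2.30 to 13.2. Cebpb, a transcription factor of the myeloid lineage, had 14 members and 15 regions in both, all downstream of the gene between 25.1 and 110.6 kb, where the distal shared peak of highest −log10 q at this gene (36.4 in WT G, 48.5 in WT A) also lay. Zfp608, a zinc finger gene, had 17 members and 14 regions in both. Frmd4a had 14 members and 5 regions, and Lrrfip1 13 members and 6 regions. Abcg1, the cholesterol exporter, also had 13 members, with 4 regions in both.

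Among the 574 genes without a region in both lists, the counts per gene were low. Plxnc1, a semaphorin receptor, and Cd200r1, an inhibitory receptor of myeloid cells, had 6 members each, and Tes, Usp6nl and Xbp1 had 5 each; these genes were singled out after their values were seen. The 5 members at Xbp1, a transcription factor of the unfolded protein response, lay 8.07 to 15.5 kb from its TSS with −log10 q values of 3.61 to 5.73.

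The 10 members named here for the highest −log10 q fell at both kinds of gene. Peaks with equal fragments and background have equal values. The tenth, near Lrrfip1, had 14 fragments, as did 8 members in all, so its place may be tied. The highest lay at chr4:86713374-86714079, 34.8 kb upstream of Dennd4c, with a −log10 q of 18.8, a fold enrichment of 12.9 and 19 fragments, and its edge was 26 bp from a WT A peak. The next, near A530064D06Rik at chr17:48185251-48185626 and near Plekhm2 at chr4:141670220-141670751, each had 16 fragments and a −log10 q of 14.5, and lay 46902 and 51418 bp from the nearest WT A peak. A member 23.6 kb downstream of the TSS of Fos, an AP-1 subunit with 7 regions in both lists, had a −log10 q of 13.7 and a RUNX motif at its summit. The other 6, near Clmn, Ric1, Nceh1, Fam3c, Rassf8 and Lrrfip1, had −log10 q values of 11.8 to 13.2 and 14 to 17 fragments. Of the 10 named, 4 were at genes with no region in both lists (A530064D06Rik, Plekhm2, Clmn and Rassf8), a count that may change with the choice among ties. None of the 10 had a DR1 within the rule of 2 mismatches.

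Members lay at 11 of 22 transcription factor genes of myeloid cells and AMs. The gene lists were chosen with earlier results known, and their counts are a description beside the 8.90% and 6.32% of all coding genes given above. Of 22 transcription factor genes, 14 were nearest to a region in both lists and 11 to a member, with 10 genes in both counts. The list held 53 members. Klf6, a zinc finger factor, had 11 members and 16 regions in both, and its strongest member had a −log10 q of 9.26 and lay 39 bp from a WT A peak. Runx1 had 9 members and 7 regions, and Zeb2, a repressor that keeps tissue macrophage identity, 5 members and 7 regions. Spi1, which encodes PU.1, was the gene of this list with a member but no region in both. Its member, at chr2:91089038-91089527 and 6.81 kb upstream, had 11 fragments and a −log10 q of 8.04, and 6 further WT G only peaks nearest to Spi1 were not distal. Pparg had 3 regions in both and no member. Rxra had neither, and 1 WT G only peak that was not distal.

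Of 22 AM identity genes, 15 had a region in both lists and 9 had a member, 5 of them both. The 6 genes used as markers of AMs, Siglecf, Marco, Itgax, Mrc1, Chil3 and Pparg (the last from the transcription factor list), each had at least 1 region in both, and Marco, a scavenger receptor, also had 2 members. Car4, Mmp8 and Cpne5 of the AM identity list had neither a region in both nor a member. The strongest member of the list lay 24.8 kb upstream of Ear1, a ribonuclease gene of AMs, at chr14:43844077-43844761, with 13 fragments, a −log10 q of 10.5, a C/EBP motif and a half-site. Ear1, Ear2, Fabp4, a fatty acid binding protein, and Cd2 had a member and no region in both. Ear1 and Ear2 belong to a family of similar genes, so reads that fit more than 1 copy may have been lost to the alignment quality filter. Of 18 genes of GM-CSF, TGFβ and Notch signalling, 5 had a region in both and 7 had a member. Tgfbr2, a TGFβ receptor, had 5 members and 5 regions, Notch2 5 and 4, and Rbpj, the DNA-binding partner of Notch, 3 and 3. Csf2rb2, a receptor chain of the GM-CSF and IL-3 family, had 2 members and Notch1 had 1, with no region in both.

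Targets of RXR partners held members mostly, but not always, at genes with a shared region. Of 10 LXR targets, 6 had a region in both and 4 a member. Abcg1 and Abca1, which export cholesterol from macrophages, had 13 and 7 members beside 4 and 7 regions, with −log10 q values of at most 6.88 and 5.73. Scd1 had 1 member and 2 regions, and Scd2 had 1 member alone. Of 12 PPAR targets, 10 had a region in both and 3 a member, each with a region: Cd36, a fatty acid transporter (5 members, 6 regions, highest −log10 q 9.26), Plin2, a lipid droplet protein (3 and 3, 8.04), and Pdk4, a kinase that limits glucose oxidation (2 and 1, 4.64). Of 12 retinoid genes, 3 had a region and 4 a member. Dhrs3, a retinal reductase, had 4 members and 11 regions, Tgm2 3 and 6, and the receptor gene Rara 1 and 6. Cyp26b1, which degrades retinoic acid, had 1 member and no region.

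Among 12 genes typical of monocytes or of macrophages elsewhere, Cx3cr1 had a region in both lists and Ccr2, the chemokine receptor of monocytes, had 3 members and no region, the strongest 33.6 kb from its TSS with a −log10 q of 6.88. Of 16 genes of other lung and airspace cells, Ms4a1 had a region in both and none had a member. In both lists these counts were near the shares of all coding genes. Binding near a gene does not give its expression, and the purity of the sort was not measured here.

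In the KO these regions were almost never called, but the KO lists were short, with 83 peaks in KO A and 208 in KO G. Of these KO peaks, 0 of 83 and 2 of 208 overlapped a member. A KO peak overlapped 2 of 2699 members (0.0741%, 0.00898 to 0.267), both in KO G, and none in KO A. Of distal shared peaks, 120 of 1872 (6.41%, 5.34 to 7.62) overlapped a KO peak, 42 in KO A and 110 in KO G. Over all WT G peaks the share was 2.12%. The difference between members and distal shared peaks was −6.34 points (−7.54 to −5.29), and within strength classes it was −1.92 points (−2.76 to −1.08). Members were chosen for having no peak in a second library and shared peaks for having one, and the part of this rule in the difference was not tested. The overlap was also low for distal WT A only peaks (0.501%) and for WT G only peaks within 5 kb of a TSS (0.0565%). The lowest fold enrichment called at the background level of the whole genome was 5.6 in KO A and 4.65 in KO G. In WT G, 49.1% and 82.8% of members reached these values, as did 86.0% and 95.8% of distal shared peaks. In strength class 4, 1 of 186 members and 105 of 949 shared peaks (11.1%) overlapped a KO peak.

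Of the 2 members that overlapped a KO peak, one was among the strongest and one was of middling strength. The member at chr6:22363466-22363932, 7.46 kb upstream of Fam3c, had 15 fragments and a −log10 q of 13.2 in WT G and of 4.15 in KO G, and held a half-site. The member at chr2:27560844-27561081, 41.2 kb from the TSS of Wdr5, had 8 fragments, a −log10 q of 4.64 in WT G and 7.47 in KO G, and none of the motifs.

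**Figure D4:**
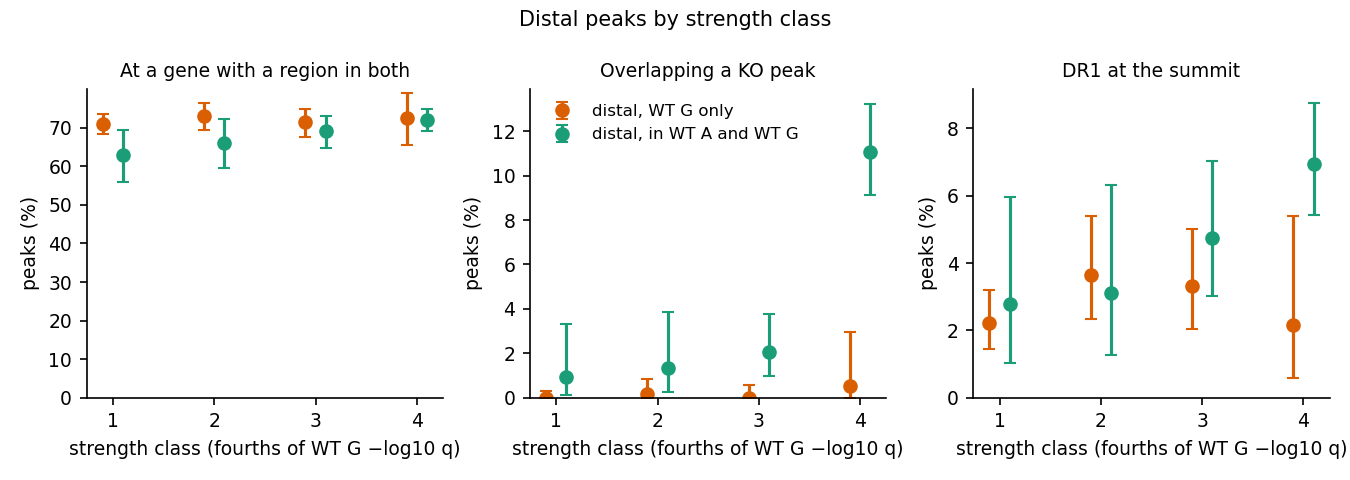
The x axis of each panel gives the strength class, from the lowest to the highest WT G −log10 q, and the y axis the share of distal WT G only peaks (orange) and distal shared peaks (green), in percent, with 95% exact intervals. The left panel shows peaks at a gene with a region in both lists, the middle one peaks that overlap a KO peak and the right one peaks with a DR1, and the sets part most in class 4 of the latter 2 panels.

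By position, the members were more often intronic than the distal shared peaks. Introns held 1577 members (58.4%, 56.5 to 60.3) and 54.5% of distal shared peaks, a difference of 3.94 points (1.02 to 6.86), or 5.80 points (1.76 to 9.83) within strength classes. With distal peaks defined by protein-coding TSSs alone it was 2.53 points (−0.0130 to 5.07), an interval that holds 0. Intergenic sequence held 38.6% and 43.1%, a difference of −4.49 points (−7.38 to −1.59). Exons held 3.0% and 2.46%, with an interval of the difference of −0.448 to 1.48. The median distance to a protein-coding TSS was 24315 bp for members and 26405 bp for distal shared peaks. By chromosome, the share of distal WT G peaks that were members ran from 48.3% on X (14 of 29) to 62.5% on chromosome 13 (155 of 248). The summit windows had a median GC content of 44.6% against 45.5%, and over 50% of the window was repeat-masked at 12% (10.8 to 13.3) of members and 7.91% (6.72 to 9.22) of distal shared peaks.

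Motifs were counted within 50 bp of the summit and, as flanks, within 50 bp of the points 500 bp before and after it. The 17 motifs were scanned on both strands. DR0 to DR5 (AGGTCA, 0 to 5 free bases, AGGTCA) and a control DR1 of the shuffled hexamer GATGCA were allowed 2 mismatches. The others were exact: the half-site AGGTCA, PU.1 (AGGAAGTG), C/EBP (TTGCNNAA), RUNX (TGTGGTT), AP-1 (TGANTCA), STAT5 (TTCNNNGAA), the E-box (CACGTG), the SMAD palindrome (GTCTAGAC), CTCF (AGGNGGC) and the GC box (GGGCGG). A direct repeat with an exact hexamer also counts as a half-site. A match is a description of the letters and does not show that a factor was bound.

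The macrophage factors' motifs were centred on the members, as were DR1, the half-site and the E-box: for each of these 7 the interval at the summit lay above that of the flanks. PU.1 lay at 2.74% of member summits and 1.28% of their flanks, a ratio of 2.14, C/EBP at 8.04% and 4.67% (1.72), RUNX at 4.22% and 2.70% (1.56) and AP-1 at 5.71% and 3.74% (1.52). DR1 lay at 2.82% (2.22 to 3.51) of member summits and 1.74% (1.41 to 2.13) of flanks, a ratio of 1.62. At distal shared peaks the ratios were 3.86 for PU.1, 2.35 for C/EBP, 2.33 for RUNX, 1.99 for AP-1 and 3.29 for DR1. Over all WT G peaks DR1 lay at 3.34% of summits. In the flanks of members and of distal shared peaks DR1 lay at 1.74% and 1.66%. The E-box lay at 2.33% of member summits and 1.32% of flanks, a ratio of 1.77 against 1.02 at distal shared peaks. The control lay at 0.778% of member summits and 0.593% of flanks, with overlapping intervals.

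Between the sets, 8 of the 17 motifs differed at the summit by an interval without 0, and each was rarer at members. When a WT A peak within 1 kb counted as shared, the intervals of C/EBP, PU.1, AP-1, RUNX and DR5 held 0. Those of DR1, DR3 and the half-site did not, but the differences shrank to −1.33 points for DR1, −0.771 for DR3 and −2.21 for the half-site. DR1 lay at 76 members (2.82%) and 102 distal shared peaks (5.45%), a difference of −2.63 points (−3.89 to −1.46). With at most 1 mismatch it was −0.213 points (−0.742 to 0.233), an interval that holds 0. The half-site lay at 8.93% and 13.6%, a difference of −4.64 points (−6.56 to −2.78). For C/EBP the difference was −2.48 points (−4.24 to −0.781), for PU.1 −1.80 (−2.98 to −0.703), for AP-1 −1.67 (−3.18 to −0.220), for RUNX −1.49 (−2.83 to −0.223), for DR5 −1.18 (−2.05 to −0.405) and for DR3 −1.12 (−1.95 to −0.379). The intervals of the other 9 held 0. The LXR type of repeat, DR4, lay at 1.33% and 1.44%, with an interval of −0.854 to 0.569. These intervals were not adjusted for the number of motifs.

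**Figure D5:**
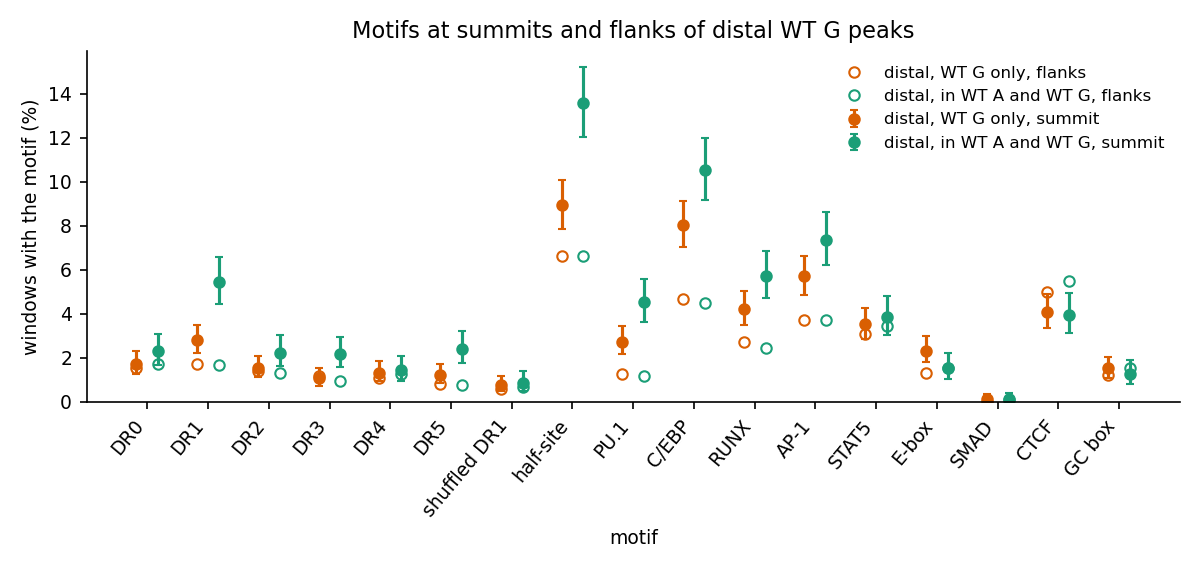
The x axis lists the 17 motifs and the y axis gives the share of windows, in percent, that hold each. Filled circles with 95% exact intervals are summits and open circles are flanks, orange for distal WT G only and green for distal shared peaks, and the half-site, C/EBP, PU.1 and DR1 stand above their flanks in both sets.

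Strength moved with these differences. Within strength classes, the DR1 difference was −0.805 points (−2.22 to 0.612), and an interval without 0 was found in class 4 alone, where 4 of 186 members (2.15%) and 66 of 949 shared peaks (6.95%) held a DR1. In class 1 the shares were 2.21% and 2.79%. The half-site (−3.50, −6.08 to −0.921), C/EBP (−2.80, −5.35 to −0.253), DR3 and DR5 kept an interval below 0, and PU.1, RUNX and AP-1 did not. For PU.1 the interval lay below 0 in class 3 (−5.57 to −0.759) and class 4 (−5.47 to −0.286). The E-box, at 2.33% and 1.55% of all peaks, was more common at members within strength classes, by 1.16 points (0.242 to 2.08).

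Within the members, DR1 and the half-site were more common where the nearest gene had no region in both lists. DR1 lay at 34 of the 765 members at genes with no region in both lists (4.44%) and at 42 of the 1934 at genes with one (2.17%), a difference of −2.27 points (−4.06 to −0.817) for the latter. The half-site lay at 12.4% and 7.55%, a difference of −4.87 points (−7.62 to −2.37). DR3, DR5, AP-1 and STAT5 were also rarer at members whose gene had a region in both, and the intervals of the other motifs held 0. This split of the motifs was made after earlier counts were seen. Leaving out the members within 1 kb of a WT A peak left DR1 at 4.58% and 2.30%, a difference of −2.28 points (−4.17 to −0.664), while the interval for STAT5 then held 0 (−3.66 to 0.0557). The heights of these 2 groups were near each other, with a median −log10 q of 3.95 and 4.22. Introns held 51.9% of the members at genes without a region and 61.0% of those at genes with one, a difference of 9.12 points (4.97 to 13.3).

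Motifs also differed with the distance to a WT A peak, a split that was likewise made after counts were seen. C/EBP lay at 5.46% of the members within 1 kb of a WT A peak and at 8.94% of those beyond, a difference of −3.48 points (−5.45 to −1.21). PU.1 lay at 1.58% and 3.15%, a difference of −1.56 points (−2.67 to −0.162), and AP-1 at 4.02% and 6.29% (−2.27, −3.95 to −0.278). DR0 went the other way, with 2.73% and 1.40% (1.33, 0.179 to 2.89). The median −log10 q was 4.64 near a WT A peak and 3.87 beyond. The half-site lay at 7.04% and 9.59% (−2.55, −4.71 to −0.0805). DR1 lay at 1.87% and 3.15%, and the interval of the difference, −2.43 to 0.191, held 0.

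Of the 4751 WT A peaks, 399 were distal with no WT G peak. A DR1 lay at the WT A summit of 22 of these (5.51%, 3.49 to 8.23), and 2 (0.501%, 0.0608 to 1.80) overlapped a KO peak. WT G only peaks within 5 kb of a TSS numbered 3540. Their median −log10 q was 4.64, DR1 lay at 2.06% (1.62 to 2.59) of them, and 2 overlapped a KO peak.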

How the data were processed

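RXRα HT-ChIPmentation peak lists of WT A, WT G, KO A and KO G were analysed, and the input's own file was not used here. Before depositing them, the authors used Cutadapt (1.7.1) for trimming, Bowtie2 for alignment to mm10, PICARD against duplicates, samtools (0.1.18) to keep proper pairs above Q30, and MACS3 (3.0.0a5) to call each library's peaks against the input at q 0.05, without pooling. Deposited values refer to the summit: the fold enrichment is a ratio of pileup to input background with a pseudocount of 1, −log10 p and −log10 q are the caller's, the score equals 10 times −log10 q cut to its whole part in every deposited peak (0 mismatches), and another deposited column is the summit offset. Read totals are not in the lists.

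Members and lists were chosen with earlier results of these data known. Distances used GENCODE M21, and sequences GRCm38. The summit fragments are the whole number that returns the fold enrichment and, as a Poisson tail, −log10 p within 0.004; 99.8% of WT G peaks had 1 such number. With the shortest peak of each list as its fragment length, an assumption not checked against read totals, the derived depths relative to the input were 1.13 (WT A), 0.237 (WT G), 0.647 (KO A) and 0.849 (KO G). Shares have 95% exact (Clopper-Pearson) intervals and differences Newcombe intervals, or a weighted normal interval within the 4 strength classes; they cover counting error only. Named regions were 10 members of highest −log10 q (ties at the tenth place not kept), the 6 genes with the most, up to 4 genes per list by −log10 q (ties kept), the DR1 windows, members on KO peaks and those at the limits. Alternatives were other overlaps, distances, TSS sets, q cuts, windows and mismatches. Steps were tested on simulated data. The work was done in Python (3.11.15) with matplotlib (3.10.9), pandas (2.3.3), numpy (2.4.6), pysam (0.24.0) and scipy (1.17.1).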

Additional observations from a re-analysis of the deposited data

How the results depend on the processing

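Of 205 values recomputed under 16 settings for 24 results, 163 were classed as unchanged. Shares and differences so classed kept their direction and their side of the threshold or moved within their error. Counts of peaks have no such interval, and 2003, 3278 and 3533 distal WT G only peaks were classed as unchanged beside 2699. The values classed as changed include these. The number of distal peaks found in WT G only was 1748 with a distance of 10 kb and 874 among as many of the strongest WT G peaks as WT A has. The share at genes with a region in both lists was 63.0% when a WT A peak within 1 kb counted as shared, 61.7% with the nearest TSS of any gene and 63.3% when the region itself had to be distal. Its difference from distal shared peaks was −13.9, 3.57 and 4.04 points under the same 3 settings and 5.97 points within strength classes, each with an interval that excluded 0 (0.683 to 6.46 for any gene and 1.17 to 6.92 for distal regions), unlike the interval of the reported value. The first follows from its construction, and for the others the cause was not tested. The intron share was 56.3% beyond 10 kb, and its difference 2.53 points, with an interval that held 0, when TSSs of protein-coding transcripts alone defined distal peaks. The DR1 share was 2.06% beyond 10 kb, 0.482% with at most 1 mismatch and 5.30% within 100 bp of the summit. The DR1 difference was −0.213 points with at most 1 mismatch and −0.805 within strength classes, both with intervals that held 0, and the RUNX difference was 0.120 points within strength classes. With a WT A peak within 1 kb counted as shared, the differences of C/EBP (−0.214), PU.1 (−0.593), AP-1 (−0.174), RUNX (−1.05) and DR5 (−0.549) also came to hold 0 in their intervals. So did DR3, RUNX and AP-1 among the strongest peaks, DR5 beyond 10 kb, DR3 and DR5 with at most 1 mismatch, AP-1 at a −log10 q of at least 3, and PU.1 and AP-1 within strength classes. The intron values within strength classes were an alternative chosen after seeing the data. Without one KO library or the other, the share of members on a KO peak ranged from 0 to 0.0741% and its difference from distal shared peaks from −5.80 to −2.24 points.

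No paired analysis was possible because the letters A and G that the genotypes share define the members within WT, and no test across genotypes was made. Leaving out WT A or WT G gives no value, since the rule needs both lists. Most members rest on at most 10 fragments, in a library shallower than WT A by the derived depths (4.77 times, or 2.58 times with an equal fragment length, an alternative chosen after seeing the data), and a place without a called peak has no value, so absence from a list is not absence of binding. Library, animal and letter cannot be told apart with 1 library per letter and genotype.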
